A study of Mus musculus with 48 samples.

Results

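The comparison described here is etoposide against DMSO in Trp53-KO cells, chosen by the genotype and treatment in the sample labels, and it holds 6 of the 48 libraries of the series. The cells are Cas9-Hoxb8 cells, a mouse granulocyte-monocyte progenitor (GMP) line kept immature by Hoxb8 and carrying Cas9, and the study set them in 4 genotypes: Trp53-KO, E6l2-Trp53-KO, E6l2-KO and wildtype, with E6l2 standing for Ercc6l2. The tested libraries are 3 of Trp53-KO cells seeded at 0.25 M (M, 1000000) per well and exposed for 48 h to etoposide, at a dose that no source used here states. They are set against 3 libraries of Trp53-KO cells given DMSO, the solvent, at the same seeding and time. The same pair of treatments, with 3 libraries each, exists in wildtype, E6l2-KO and E6l2-Trp53-KO cells. Cas9 and Hoxb8 are shared by all of these groups. No label tells separately edited lines of 1 genotype apart or says how replicates were made, so p-values measure only the spread between these libraries, which may be technical.

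Etoposide traps topoisomerase II on DNA and leaves double-strand breaks. In cells with p53, such breaks lead to stabilisation of the protein, which binds sites near genes for cell-cycle arrest (Cdkn1a), apoptosis (Bbc3, Bax) and its own control (Mdm2, Ccng1) and turns them on. Myeloid progenitors are known to be sensitive to this drug, and cells that have lost p53 keep the break-sensing and repair machinery but lack that transcriptional arm.

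Promoters of 3 classical p53 targets are printed. These genes responded to etoposide in wildtype cells and differed in that response in Trp53-KO cells, as did other targets whose windows held no match. Each runs from 250 bases before to 50 bases after a RefSeq transcription start on GRCm38.p6, 5′ to 3′, with matches to the p53 half-site consensus in capitals. In Cdkn1a the capitals span a pair of half-sites and the spacer between them, from -73 to -42 relative to the start. The windows are chr17:29090729-29091028 on the plus strand for the upstream start of Cdkn1a, chr11:40755237-40755536 on the minus strand for Ccng1 and chr7:45466849-45467148 on the minus strand for Bax.
Cdkn1a: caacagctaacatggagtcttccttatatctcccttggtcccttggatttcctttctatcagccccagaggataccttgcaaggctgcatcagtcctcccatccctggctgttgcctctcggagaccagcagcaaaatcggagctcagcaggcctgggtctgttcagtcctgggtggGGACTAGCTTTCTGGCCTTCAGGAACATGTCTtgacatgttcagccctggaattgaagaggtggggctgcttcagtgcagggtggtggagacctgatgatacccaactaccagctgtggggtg
Ccng1: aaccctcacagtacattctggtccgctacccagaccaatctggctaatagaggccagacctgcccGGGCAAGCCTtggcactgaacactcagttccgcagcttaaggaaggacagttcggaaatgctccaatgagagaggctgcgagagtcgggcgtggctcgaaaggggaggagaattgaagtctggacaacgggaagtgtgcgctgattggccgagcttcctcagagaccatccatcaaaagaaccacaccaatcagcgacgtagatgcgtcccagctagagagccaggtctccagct
Bax: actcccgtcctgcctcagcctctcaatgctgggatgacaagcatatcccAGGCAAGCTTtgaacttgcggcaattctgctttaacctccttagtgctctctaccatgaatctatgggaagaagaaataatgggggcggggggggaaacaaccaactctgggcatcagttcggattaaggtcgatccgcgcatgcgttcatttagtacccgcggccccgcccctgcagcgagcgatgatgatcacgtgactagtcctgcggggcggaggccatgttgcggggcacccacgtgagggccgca
The half-site consensus, which reads the same on both strands, occurred in the promoters of 12 of 37 p53 targets with an entry (32.4%), against 9.55% of all 27025 genes scanned. A pair of half-sites at most 13 bases apart occurred in 1 of the 37, Cdkn1a, and in 20 of all genes (0.074%). Of 13 targets with an entry and a lower response in Trp53-KO than in wildtype cells, 6 had a half-site (46.2%), the printed ones among them. No half-site occurred in the windows of Phlda3 and Bbc3 or at the other Cdkn1a start, chr17:29093519-29093818. Such a match describes letters in this window only.

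The 6 libraries held between 22.5 and 30.8 M counts, with 29.8 to 30.8 M in the etoposide libraries and 22.5 to 29.7 M in the DMSO libraries. Ribosomal protein genes took 14.1 to 16.2% of counts and mitochondrial genes 2.1 to 2.5%. Mpo, Ctsg, Cd34, Myb and Kit were high among the 17 progenitor markers that go with the GMP label. Mpo was at 2176 to 2453 CPM (counts scaled to a common library total by edgeR's TMM, as are all levels here) in etoposide libraries and 2180 to 2523 CPM in DMSO libraries. Kit, the stem cell factor receptor, was at 307 to 312 CPM with etoposide and 311 to 329 CPM with DMSO. Ltf, a late neutrophil granule gene, was below 0.5 CPM in all 6 libraries. Other mature neutrophil markers such as Mmp8 were present, and that list summed to 85.8 to 94.3 CPM with etoposide and 78.3 to 82.3 CPM with DMSO. Markers of other lineages were present too, among them the mast cell gene Cpa3, which lay above Kit in all 6 libraries, as described further on. Of the 17 progenitor markers none had an unadjusted p under 0.05 and their median log2 difference was -0.02.

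Across the genome the etoposide and DMSO libraries of Trp53-KO cells were nearly indistinguishable. No gene of 14059 tested was called (0%) at an adjusted p under 0.05 by edgeR's quasi-likelihood test with Benjamini-Hochberg adjustment, in a fit of the 36 untransformed libraries of the series, and DESeq2 also called 0. The lowest adjusted p was 0.491, and 468 genes (3.33%) had an unadjusted p under 0.05, 258 of them higher with etoposide (1.84%) and 210 lower (1.49%). DESeq2, run without the filter on low counts, gave 380 of 21988 genes at that unadjusted limit. The 3 etoposide values and the 3 DMSO values did not overlap for 706 genes higher with etoposide (5.02%) and 726 lower (5.16%), together 10.2%. Genes named below for their rank, such as Gbp6, Slc16a3, Trib3 and Jun, were taken only from those without overlap. Their lack of overlap was therefore set by the choice. Without the filter on low counts 16 genes were called (0.0728%). Differences above 0 made up 49.5% and below 0 50.5%.

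The comparison could have shown moderate changes in expressed genes. Among 9444 genes with at least 5 CPM, the 95% confidence interval of the etoposide-to-DMSO ratio lay inside 2-fold either way for 9432 (99.9%) and inside 1.5-fold for 9397 (99.5%). Their median absolute log2 difference was 0.04, against 0.14 in wildtype, 0.14 in E6l2-KO and 0.10 in E6l2-Trp53-KO cells. A fitted difference of at least 2-fold was seen for 3 such genes in Trp53-KO cells, against 20 in E6l2-Trp53-KO, 63 in E6l2-KO and 103 in wildtype cells. The 3 were Rps27 and H2bc23, described further on as uncertain, and Gm49909, a predicted model with an unadjusted edgeR p of 0.246. For the 4615 genes below 5 CPM the interval lay inside 2-fold for 57.1%, so larger changes of rare transcripts could have gone undetected at this depth. Pairs of 1 etoposide and 1 DMSO library differed by an SD of 0.10 to 0.16 in log2 over genes (median 0.12, 9 pairs), against 0.11 to 0.14 for pairs of DMSO libraries (median 0.13, 3 pairs) and 0.10 to 0.12 for pairs of etoposide libraries (median 0.11, 3 pairs). The ranges overlapped, and the widest of the 9 treatment pairs lay above the within-group pairs.

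**Figure D1:**
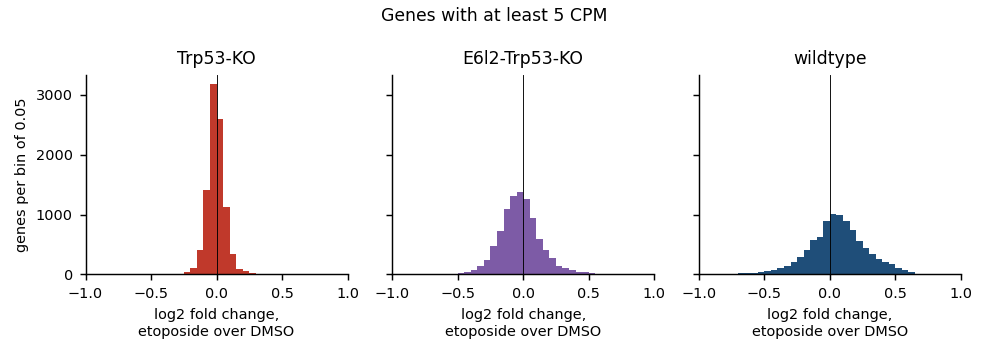
Numbers of genes (y axis) by log2 fold change of etoposide over DMSO (x axis, bins of 0.05) for genes with at least 5 CPM, in Trp53-KO, E6l2-Trp53-KO and wildtype cells, 3 libraries per treatment. The Trp53-KO genes form the narrowest peak around 0, with a median absolute difference of 0.04, against 0.10 in E6l2-Trp53-KO and 0.14 in wildtype cells.

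Small shifts appeared when same-numbered libraries were compared with each other. Same-numbered Trp53-KO libraries deviated together from their group means, so an edgeR fit of the 6 libraries with the replicate number as a block was added after the data were seen. It called 146 of 12934 genes (1.13%), 77 higher with etoposide (0.595%) and 69 lower (0.533%), with median log2 differences of 0.23 and -0.19. Of these, 10 of the higher and 4 of the lower genes differed by 1.5-fold or more. This count rested on 2 residual degrees of freedom, with the spread of each gene mostly borrowed from other genes: DESeq2 with the same block called 19, leaving out pair 3 left 37 and pair 1 83, leaving out pair 2 gave 190, and blocked fits of all 36 libraries called 0. The 10 genes called in each of its 7 alternatives with the block were S100a6, Ube2c, Lamc1, Lyz2, AA474408, Bnip3, Gbp4, Rps27, Hmgcs1 and Gbp6. Of these, Rps27 is uncertain, as described further on.

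The targeted gene was checked first. Trp53 RNA was 28.1, 27.8 and 28.9 CPM in Trp53-KO etoposide libraries and 28.1, 29.2 and 29.3 CPM in Trp53-KO DMSO libraries. Wildtype cells had 85.0 ± 1.88 CPM with etoposide and 79.1 ± 3.43 CPM with DMSO (SD, n = 3 each), so the transcript persisted at a lower level in the edited cells, with no overlap. Etoposide against DMSO differed by -0.03 in log2 in Trp53-KO cells (95% interval -0.19 to 0.14). Its relatives Trp63 and Trp73 had no counts in any of the 6 libraries.

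Cdkn1a, which encodes the p21 inhibitor of cyclin-dependent kinases, was 1.84, 1.35 and 1.85 CPM in Trp53-KO etoposide libraries and 1.35, 1.97 and 2.02 CPM in Trp53-KO DMSO libraries. The Trp53-KO groups overlapped, and the log2 difference was -0.06 (95% interval -0.57 to 0.45). In wildtype cells Cdkn1a was 12.4, 14.1 and 15.1 CPM with etoposide and 3.41, 2.73 and 3.19 CPM with DMSO, 4.47-fold higher. The response was lower in Trp53-KO than in wildtype cells by -2.22 (SE 0.31, adjusted p = 8.19e-06, edgeR).

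Phlda3, an AKT inhibitor induced by p53, had 1.27, 1.29 and 1.32 CPM in Trp53-KO etoposide libraries, against 1.35, 1.22 and 1.51 CPM in Trp53-KO DMSO libraries. In wildtype cells it was 13.6, 14.5 and 14.5 CPM with etoposide and 3.19, 2.81 and 3.67 CPM with DMSO. The Trp53-KO response was lower by -2.20 (edgeR adjusted p = 3.95e-08). The level in Trp53-KO cells under either treatment lay below every wildtype DMSO library.

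Among the apoptosis genes, Bbc3 (PUMA) had 6.25, 7.27 and 6.68 CPM with etoposide and 7.39, 7.01 and 8.44 CPM with DMSO in Trp53-KO cells. Wildtype cells had 16.6 ± 0.948 CPM with etoposide and 7.49 ± 0.719 CPM with DMSO (SD, n = 3 each), and the responses differed by -1.32 (edgeR adjusted p = 1.32e-06). Bax, which opens mitochondria during apoptosis, had 54.9, 51.6 and 55.1 CPM with etoposide and 50.05, 51.2 and 51.3 CPM with DMSO in Trp53-KO cells. The groups did not overlap, but the difference was 0.08 (95% interval -0.06 to 0.23), against 0.88 in wildtype cells. Ccng1 (cyclin G1) had 50.1, 51.9 and 51.5 CPM with etoposide and 48.4, 53.1 and 48.9 CPM with DMSO in Trp53-KO cells, overlapping, while wildtype cells had 142 ± 4.45 CPM with etoposide and 71.1 ± 1.59 CPM with DMSO. Mdm2, the ubiquitin ligase that degrades p53, was near 40 CPM in Trp53-KO and wildtype cells under both treatments, and its response differed by 0.02 (edgeR adjusted p = 0.872).

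**Figure D2:**
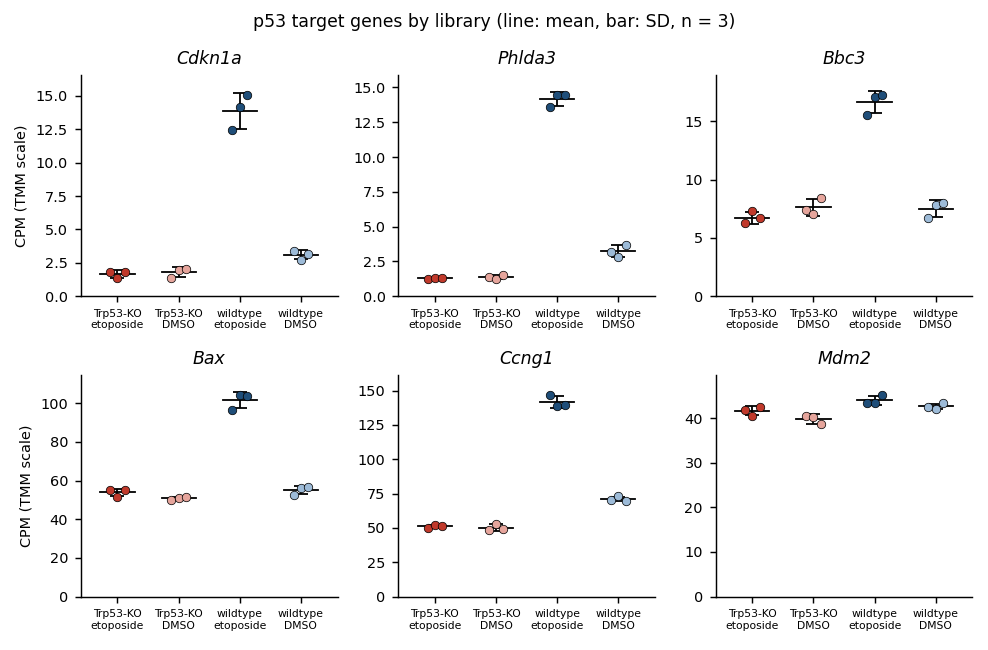
CPM (y axis, TMM scale) of 6 p53 targets in each library of Trp53-KO and wildtype cells by treatment (x axis), with a line at the mean and a bar of 1 SD (n = 3). For Cdkn1a, Phlda3, Bbc3, Bax and Ccng1 the wildtype etoposide libraries lie above all other libraries, while the Trp53-KO etoposide and DMSO libraries lie close together, and Mdm2 stays near 40 CPM throughout.

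Of 45 listed p53 targets, 43 passed the filter on low counts, and Plk2 and Ephx1 were at 0. None was called in Trp53-KO cells, with a median log2 difference of 0.00 against -0.00 over all genes tested, and 22 lay above 0 and 20 below. No target had an unadjusted p under 0.05 in the higher direction (1.84% of all genes) and 1 in the lower (1.49%), Sesn2, a stress-induced regulator of mTORC1, at 22.6, 23.6 and 23.5 CPM with etoposide and 26.4, 27.1 and 26.4 CPM with DMSO. Sesn2 also passed the 6-library blocked fit (edgeR adjusted p = 0.0331), as the single target that did, where 0.595% of all genes were called higher and 0.533% lower. Trp53inp1, which promotes p53 activity and autophagy, was 20.2, 20.5 and 19.9 CPM with etoposide and 17.6, 20.7 and 16.6 CPM with DMSO, overlapping, with a log2 difference of 0.14 (SE 0.08) against 1.12 in wildtype cells. Aen, a nuclease of apoptotic cells, was 57.3, 53.03 and 56.3 CPM with etoposide and 55.7, 52.7 and 54.5 CPM with DMSO (0.03, SE 0.10), against 0.50 in wildtype cells. Zmat3 and Gdf15 were close to or below 1 CPM in all 6 libraries. For 38 targets the interval of the ratio lay inside 2-fold. The list's summed level was 1268 to 1324 CPM with etoposide and 1267 to 1281 CPM with DMSO.

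In wildtype cells 22 of the same 43 targets rose with etoposide and 1 fell (41.5% of all genes tested were called, 20.3% higher and 21.1% lower). The response was lower in Trp53-KO than in wildtype cells for 14 targets and higher for none, where 1697 of all genes tested had a higher response (12.1%) and 1560 a lower one (11.1%). The 14 were Cdkn1a, Bbc3, Bax, Ccng1, Phlda3, Trp53inp1, Sesn2, Aen, Ei24, Dcxr, Sulf2, Triap1, Rps27l and Ak1. Against E6l2-KO cells 19 had a lower response and 1 a higher one (6.64% and 6.72% of all genes). Against E6l2-Trp53-KO cells, where Trp53 is edited too, no target differed by edgeR at an adjusted p under 0.05 (0.114% of all genes higher and 0.0925% lower).

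Psrc1 and Dglucy, which are on no list, were picked for having some of the lowest responses relative to wildtype cells, so the values below describe them. Psrc1, a spindle protein, was 2.41, 2.71 and 1.98 CPM with etoposide and 2.54, 2.76 and 2.71 CPM with DMSO in Trp53-KO cells, against 8.36 ± 0.326 CPM with etoposide and 2.66 ± 0.322 CPM with DMSO in wildtype cells (SD, n = 3 each). The responses differed by -1.81 (edgeR adjusted p = 2.89e-08). Dglucy, a mitochondrial enzyme of D-glutamate metabolism, was 2.76, 3.43 and 3.31 CPM with etoposide and 3.20, 3.03 and 2.97 CPM with DMSO, overlapping, against 17.8 ± 0.715 CPM with etoposide and 7.05 ± 0.273 CPM with DMSO in wildtype cells. Both wildtype treatments were above the Trp53-KO levels for Dglucy, while for Psrc1 the wildtype DMSO level was near them.

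The 17 tested p53 family and regulator genes had a median of -0.01, with all intervals inside 1.5-fold and no unadjusted p under 0.05. The 5 cyclin-dependent kinase inhibitors tested had a median of -0.01. Among 14 tested BCL2 family genes the median was 0.00 and no member had an unadjusted p under 0.05. Mcl1, an anti-apoptotic member that myeloid cells depend on, was 150.4, 149.5 and 142 CPM with etoposide and 149.5, 151 and 143 CPM with DMSO. Bcl2l1 (BCL-XL) was 23.9, 24.8 and 24.03 CPM with etoposide and 25.1, 23.4 and 26.05 CPM with DMSO, and both genes overlapped between treatments.

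Genes that act on the drug or on its lesion showed no called change. Top2a, the main topoisomerase II of dividing cells, was 641, 643 and 663 CPM with etoposide and 650.2, 674 and 624 CPM with DMSO, a log2 difference of -0.00 (95% interval -0.12 to 0.12). Top2b, the isoform of resting cells, was 271, 289.7 and 289.5 CPM with etoposide and 285, 306 and 272 CPM with DMSO, overlapping (-0.02, SE 0.05). The drug exporter genes Abcb1a and Abcb1b differed by 0.03 (SE 0.08) and 0.00 (SE 0.08). In wildtype cells Abcb1b rose by 0.36, and the difference in response was -0.36 (edgeR adjusted p = 0.024). Ercc6l2, a helicase-like protein of end joining and the other gene edited in the study, was 26.2, 27.3 and 27.7 CPM with etoposide and 26.7, 27.7 and 27.1 CPM with DMSO. None of the 19 genes for topoisomerases, adduct repair and drug efflux had an unadjusted p under 0.05. The same held for all 40 genes of recombination, the Fanconi pathway and damage signalling, whose intervals all lay inside 1.5-fold, with a median of -0.01. End-joining genes had a median of -0.03, with 1 of 19 at an unadjusted p under 0.05.

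Cell-cycle genes stayed close to the DMSO level. The 40 S-phase and replication genes had a median of -0.02 and 1 unadjusted p under 0.05, in the lower direction. The 22 replication-dependent histone genes had a median of -0.06 and none had an unadjusted p under 0.05. That median ran from -0.13 without DMSO replicate 2 to 0.00 without DMSO replicate 1, where 10 of the 22 lay below 0 instead of all. Of 40 G2/M and mitosis genes, 4 were higher and 1 lower at an unadjusted p under 0.05 (1.84% and 1.49% of all genes), and 3 were called higher by the 6-library blocked fit (0.595%). Ube2c, the ubiquitin-conjugating enzyme of the anaphase-promoting complex, was 126.9, 113.7 and 127.2 CPM with etoposide and 104, 99.2 and 110.2 CPM with DMSO. Every etoposide library lay above every DMSO library, with a log2 difference of 0.23 (SE 0.06) and adjusted p = 9.34e-06 in the blocked edgeR fit but 0.744 in the 36-library fit. Cdc25b, a phosphatase that starts mitosis, was 29.4, 31.5 and 30.9 CPM with etoposide and 26.8, 27.3 and 26.01 CPM with DMSO (0.19, SE 0.06).

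Hypoxia and glycolysis genes were the list with the most members on 1 side at an unadjusted p under 0.05. Of 37 tested, 34 lay below 0, the median log2 difference was -0.11, 10 had an unadjusted p under 0.05 in the lower direction (1.49% of all genes) and none in the higher. The median was -0.07 without DMSO replicate 3. The 36-library fit called none of them. The blocked fit of the 6 libraries called 13 of 36 lower (0.533% of all genes): Slc16a3, Bnip3, Slc2a1, Pfkl, P4ha1, Pgk1, Ak4, Aldoa, Egln3, Eno1, Vegfa, Pkm and Tpi1. The list's summed level was 13102, 12856 and 13231 CPM with etoposide and 14342, 13130 and 15064 CPM with DMSO, so the DMSO library of replicate 2 lay below one etoposide library.

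Slc16a3, the lactate exporter MCT4, was 17.2, 20.2 and 21.6 CPM in Trp53-KO etoposide libraries and 22.4, 25.1 and 31.9 CPM in Trp53-KO DMSO libraries. The groups did not overlap, and the log2 difference was -0.42 (SE 0.14, unadjusted p = 0.00412, adjusted p = 1 in the 36-library edgeR fit and 8.07e-07 in the blocked fit). In E6l2-Trp53-KO cells it was 12.4, 16.7 and 12.9 CPM with etoposide and 30.0, 45.3 and 37.4 CPM with DMSO, and in wildtype cells 8.21, 8.30 and 7.49 CPM with etoposide and 29.2, 25.9 and 34.3 CPM with DMSO. The fall with etoposide in those genotypes was the larger one: the Trp53-KO response was higher by 1.02 than that of E6l2-Trp53-KO cells (edgeR adjusted p = 0.0187) and by 1.48 than that of wildtype cells (adjusted p = 9.38e-06).

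Bnip3, a mitophagy receptor induced by HIF-1, was 85.0, 94.9 and 97.4 CPM with etoposide and 99.4, 107 and 122 CPM with DMSO in Trp53-KO cells. The groups did not overlap, and the difference was -0.24 (SE 0.10). In E6l2-Trp53-KO cells Bnip3 was 52.0, 45.5 and 59.6 CPM with etoposide and 92.9, 116 and 108 CPM with DMSO, and in wildtype cells the difference was -1.23. Pfkl, the liver-type phosphofructokinase, was 188, 191 and 201 CPM with etoposide and 234, 201 and 249 CPM with DMSO, where replicate 2 of DMSO lay at the etoposide level. P4ha1, a collagen prolyl hydroxylase, was 62.6, 74.2 and 71.4 CPM with etoposide and 77.6, 80.2 and 83.1 CPM with DMSO. Ak4, a mitochondrial adenylate kinase, was 4.25, 5.76 and 6.38 CPM with etoposide and 6.202, 8.04 and 8.79 CPM with DMSO, overlapping. Slc2a1, the glucose transporter GLUT1, was 33.2, 42.6 and 42.8 CPM with etoposide and 40.6, 50.2 and 51.7 CPM with DMSO, lower with etoposide in each same-numbered pair although the groups overlapped.

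The list as a whole moved further in the other genotypes, with a median log2 difference of -0.33 in E6l2-Trp53-KO cells (23 of 37 called lower, 1 higher, where 7.25% of all genes were called lower and 5.97% higher) and -0.31 in wildtype cells (23 lower, 2 higher). The response of Trp53-KO cells was higher than in E6l2-Trp53-KO cells for 9 members and lower for none, of 29 genes called over the genome (0.206%; 0.114% higher and 0.0925% lower). A fit of those groups alone called 0 of these members. Without 1 library the count ran from 2 (without Trp53-KO DMSO replicate 1, Trp53-KO etoposide replicate 3 or E6l2-Trp53-KO DMSO replicate 2) to 14 (without E6l2-Trp53-KO etoposide replicate 1 or 2). The 9 were Pfkl, Aldoa, Tpi1, Eno1, Ldha, Pdk1, Slc16a3, Bnip3 and P4ha1, all of which act in glycolysis or are known HIF targets. Against wildtype cells 13 members had a higher response and 1, Higd1a, a lower one (12.1% and 11.1% of all genes), and against E6l2-KO cells 12 a higher one (6.72%).

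**Figure D3:**
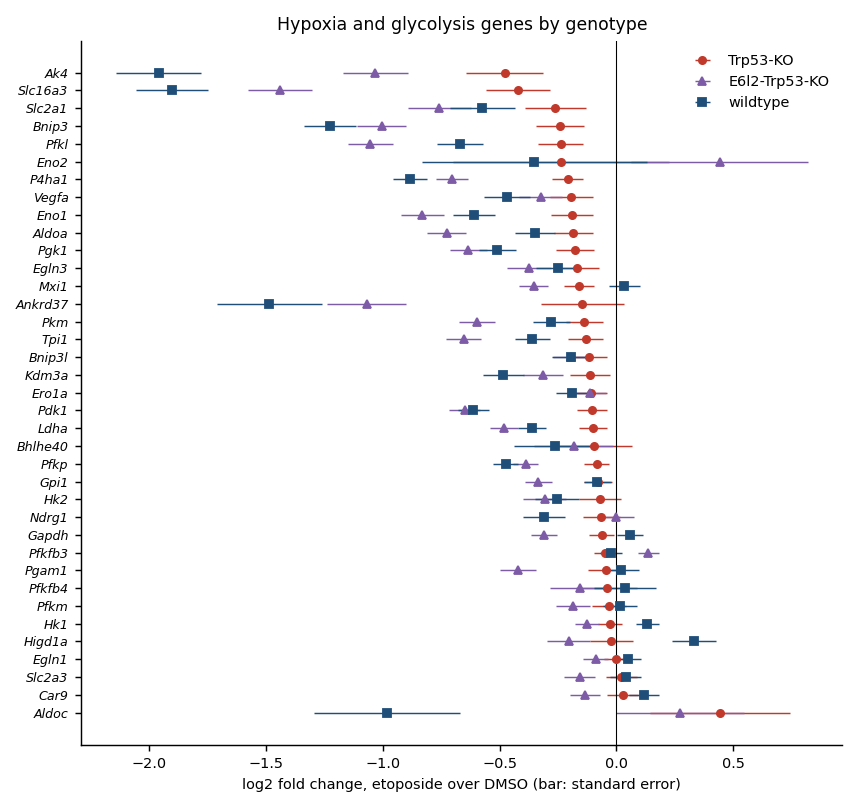
Log2 fold change of etoposide over DMSO (x axis, bar of 1 standard error) for each tested hypoxia and glycolysis gene (y axis), in Trp53-KO, E6l2-Trp53-KO and wildtype cells, 3 libraries per treatment. The Trp53-KO values have a median of -0.11 and mostly lie between 0 and the values of the other genotypes, whose medians are -0.33 and -0.31.

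Cholesterol synthesis genes lay narrowly below the DMSO level. Of 27 tested, 26 were below 0, the median was -0.09, and 3 had an unadjusted p under 0.05, all lower (1.49% of all genes), while the blocked fit called 6 lower (0.533%), among them Hmgcs1, Cyp51 and Idi1. Hmgcs1, the synthase ahead of HMG-CoA reductase, was 166, 185 and 163 CPM with etoposide and 183, 209 and 186 CPM with DMSO, a difference of -0.17 (SE 0.07). Cyp51, the lanosterol demethylase, was 90.5, 109 and 88.1 CPM with etoposide and 98.6, 123 and 103 CPM with DMSO. For both genes each pair had the lower value with etoposide, although the groups overlapped. The list's median ran from -0.14 without etoposide replicate 2 to -0.05 without DMSO replicate 2. In E6l2-Trp53-KO cells 24 members of this list fell (7.25% of all genes), and in wildtype cells 20 rose (20.3%). The Trp53-KO response was higher than the E6l2-Trp53-KO one for 2 members (0.114%) and lower than the wildtype one for 18 (11.1%).

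Genes of the unfolded protein and integrated stress response had 29 of 35 members below 0, a median of -0.06 and 5 at an unadjusted p under 0.05, all lower (1.49% of all genes). The groups did not overlap for 13 members, all lower with etoposide (5.16% of all genes). The blocked fit called 4 lower (0.533%): Trib3, Slc7a11, Sesn2 and Chac1. Trib3, a pseudokinase induced by CHOP, was 3.02, 3.78 and 3.24 CPM with etoposide and 4.12, 5.202 and 6.68 CPM with DMSO. Its groups did not overlap and the difference of -0.66 (SE 0.21) was among the lowest of all ranked genes, with an adjusted p of 1 in the 36-library edgeR fit. Chac1, which degrades glutathione, was 7.81, 8.31 and 8.50 CPM with etoposide and 9.14, 10.4 and 11.02 CPM with DMSO. In E6l2-Trp53-KO cells 21 members of the list fell (7.25% of all genes) and none rose.

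Immediate early genes had 18 of 21 members below 0 and a median of -0.09, which was -0.05 without DMSO replicate 3. Jun, a subunit of AP-1, was 4.54, 5.10 and 4.13 CPM with etoposide and 5.84, 6.19 and 7.54 CPM with DMSO, without overlap. Egr1, an early growth response factor, was 5.08, 3.65 and 3.93 CPM with etoposide and 4.29, 4.06 and 4.65 CPM with DMSO in Trp53-KO cells, overlapping. In wildtype cells it was 1.12 ± 0.172 CPM with etoposide and 5.78 ± 1.34 CPM with DMSO (SD, n = 3 each), and the responses differed by 2.32 (edgeR adjusted p = 0.00983). NF-kB subunits and feedback genes had a median of 0.01 and none of 16 at an unadjusted p under 0.05.

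Gbp6, a guanylate-binding protein and interferon-inducible GTPase, was among the highest ranked genes. It was 58.4, 57.3 and 63.3 CPM with etoposide and 46.4, 44.9 and 48.8 CPM with DMSO. All 3 etoposide libraries lay above all DMSO libraries, with a log2 difference of 0.35 (SE 0.09), adjusted p = 0.744 in the 36-library edgeR fit and 7.45e-09 in the blocked fit. Gbp4 was 68.3, 58.7 and 69.8 CPM with etoposide and 56.0, 51.04 and 51.98 CPM with DMSO (0.31, SE 0.09). Gbp9, at 46.4, 42.4 and 48.7 CPM with etoposide and 38.2, 37.6 and 39.4 CPM with DMSO, and Gbp8, at 21.1, 21.2 and 22.7 CPM with etoposide and 17.7, 17.4 and 18.4 CPM with DMSO, also passed the blocked fit. Both were picked after their values were seen, while the family members on the interferon list differed by 0.05 (Gbp2), 0.21 (Gbp3) and -0.03 (Gbp7), none of them called. In wildtype cells the log2 differences were 0.25 for Gbp6, -0.08 for Gbp4, -0.14 for Gbp9 and -0.11 for Gbp8, and the difference in response was called for Gbp4 (0.38, edgeR adjusted p = 0.0288) and Gbp9 (0.40, adjusted p = 0.0307). The interferon response list itself had 25 of 32 members above 0, a median of 0.10, and 6 at an unadjusted p under 0.05, all higher (1.84% of all genes), and the blocked fit called none. Most of these are scarce: Rsad2 (viperin) was 2.13, 1.89 and 2.02 CPM with etoposide and 1.45, 1.46 and 1.29 CPM with DMSO.

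Some markers of more mature myeloid cells were among the higher ranked genes. Lyz2, the lysozyme of monocytes and granulocytes, was 96.3, 87.9 and 88.3 CPM with etoposide and 76.2, 72.4 and 67.2 CPM with DMSO. Its groups did not overlap, with a log2 difference of 0.33 (SE 0.08), adjusted p = 0.529 in the 36-library edgeR fit and 3.47e-09 in the blocked fit, and it rose by 0.45 in E6l2-Trp53-KO and 0.62 in wildtype cells. Adgre1, the macrophage receptor F4/80, was 23.1, 20.5 and 19.5 CPM with etoposide and 16.5, 16.99 and 15.4 CPM with DMSO (0.37, SE 0.09). Mmp8, a neutrophil collagenase, was 29.01, 24.8 and 21.1 CPM with etoposide and 22.7, 20.4 and 16.5 CPM with DMSO, overlapping but higher in each pair. In bulk RNA, more cells of a type and more RNA per cell cannot be told apart.

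Of 25 mast cell and basophil genes, 9 did not pass the filter on low counts, among them Mcpt1, Mcpt4, Tpsab1 and Tpsb2. Fcer1a and Alox5 were at 0 in all 6 libraries. The 16 tested had 10 above 0 and a median of 0.03. The list's summed level was 2216 to 2341 CPM with etoposide and 2061 to 2263 CPM with DMSO, the larger part of it from Cpa3. Cpa3, the mast cell carboxypeptidase, was 1249, 1381 and 1249 CPM with etoposide and 1121, 1314 and 1124 CPM with DMSO, overlapping but higher in each pair (0.12, SE 0.07), and it rose by 0.41 in E6l2-Trp53-KO and 0.42 in wildtype cells. Ptgds, a prostaglandin D synthase, was 24.8, 28.2 and 25.2 CPM with etoposide and 21.2, 25.4 and 21.1 CPM with DMSO (0.21, SE 0.10), while in wildtype cells it had 64.1 ± 3.32 CPM with etoposide and 20.6 ± 2.16 CPM with DMSO (SD, n = 3 each). The responses of Ptgds differed by -1.43 (edgeR adjusted p = 2.89e-08). Erythroid and megakaryocyte markers had a median of 0.08, with Hba-a1, Hba-a2 and Slc4a1 among those at 0 in all 6 libraries.

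Of 19 monocyte and macrophage markers tested, 15 lay above 0, with a median of 0.12 and 5 at an unadjusted p under 0.05, all higher (1.84% of all genes). That median ran from 0.06 without DMSO replicate 3 to 0.27 without DMSO replicate 1. The list's summed level was 528 to 591 CPM with etoposide and 466 to 525 CPM with DMSO. Mature neutrophil markers had 10 of 13 above 0, a median of 0.14, which ran from 0.01 without etoposide replicate 3 to 0.32 without etoposide replicate 2, and a summed level of 85.8 to 94.3 CPM with etoposide and 78.3 to 82.3 CPM with DMSO, with Fpr1 and Fpr2 at 0 in all 6 libraries. The 13 tested lymphoid markers had a median of 0.34, which ran from 0.10 without DMSO replicate 2 to 0.49 without DMSO replicate 1, with 3 at an unadjusted p under 0.05, all higher (1.84% of all genes), and a summed level of 201 to 212 CPM with etoposide and 189.6 to 209 CPM with DMSO. Pax5, Cd3e and Cd4 were among the members that did not pass the filter on low counts, and Ly6d was at 0. Cd79b, a B-cell receptor subunit, was 7.68, 6.05 and 5.69 CPM with etoposide and 4.65, 5.60 and 3.57 CPM with DMSO. The part of such cells in the differences above was not tested.

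**Figure D4:**
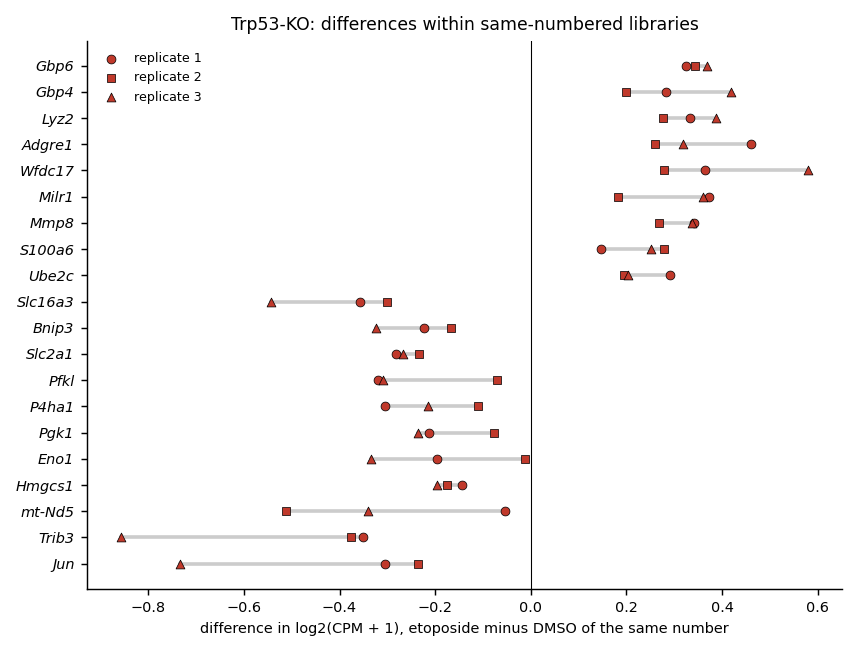
Difference in log2(CPM + 1) between etoposide and DMSO libraries of the same number (x axis, 1 symbol per replicate, grey line from lowest to highest) for 20 genes that passed the 6-library blocked fit (y axis), in Trp53-KO cells. All 3 differences have the same sign for each gene shown, but the genes were picked from those called on these same differences. The same held for 74 of the 77 genes called higher, 66 of the 69 called lower and 4047 of all 12934 genes of that fit. Gbp6 spans 0.32 to 0.37, while Eno1, Pfkl, Pgk1 and mt-Nd5 each have 1 pair between -0.08 and -0.01.

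Ribosomal protein genes had a median of 0.05, with 37 of 40 above 0 and none at an unadjusted p under 0.05. The direction turned with 1 library: the median was -0.00 with 24 members below 0 without etoposide replicate 3, 0.01 with 16 below 0 without DMSO replicate 2, and 0.11 without etoposide replicate 2. Respiratory chain genes had a median of 0.05, with 32 of 35 above 0, and 0.03 to 0.09 without 1 library, the ends being those without etoposide replicate 3 and 2. In wildtype cells 39 of the ribosomal and 33 of the respiratory genes rose (20.3% of all genes), and the Trp53-KO response was lower for 38 ribosomal and 26 respiratory genes (11.1%). Transcript length correlated with the Trp53-KO difference over 9434 genes with a Spearman rho of -0.14, given as a description since genes share their libraries. NRF2 targets, the antioxidant genes, had a median of 0.01 with 1 of 22 higher and 1 lower at an unadjusted p under 0.05. Their response was lower in Trp53-KO than in wildtype cells for 8 members (11.1% of all genes) and lower than in E6l2-KO cells for 16 (6.64%).

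**Figure D5:**
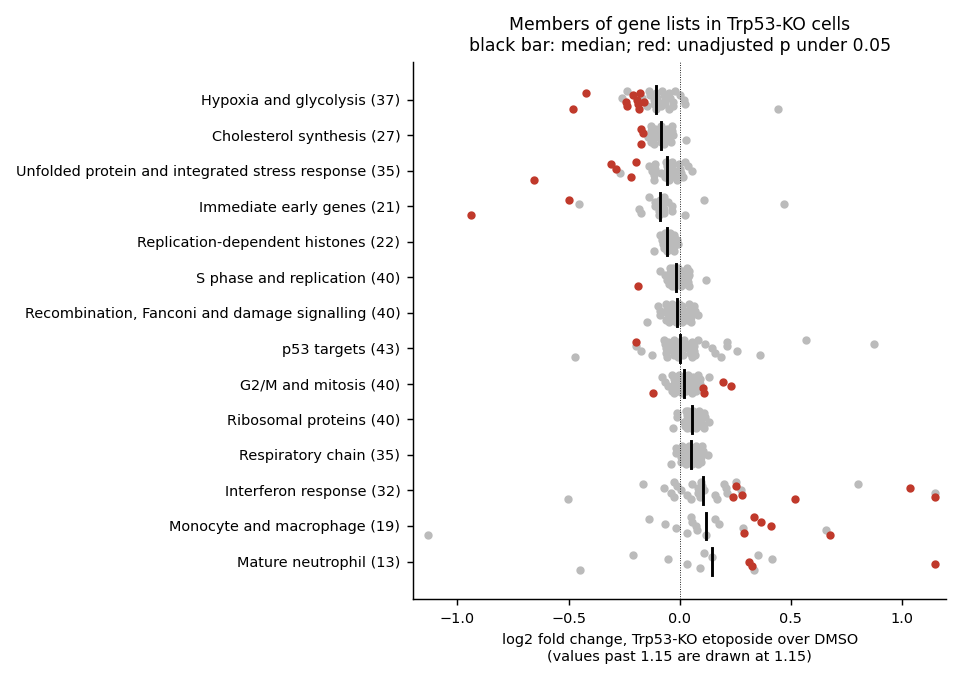
Log2 fold change of etoposide over DMSO in Trp53-KO cells (x axis) for each tested member of 14 gene lists (y axis, number of members in brackets), with a black bar at the median and members at an unadjusted p under 0.05 in red. Medians run from -0.11 for hypoxia and glycolysis to 0.14 for mature neutrophil markers (0.01 without etoposide replicate 3), with the p53 targets at 0.00, against -0.00 over all genes tested.

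Among genes ranked by size, none of them called in the 36-library fit, the highest well-measured ones included Tgm2, a transglutaminase that crosslinks proteins. It was 9.97, 10.08 and 11.4 CPM with etoposide and 7.56, 6.03 and 8.10 CPM with DMSO, a difference of 0.54 (SE 0.11) with the lowest unadjusted p of all, 3.5e-05. Wfdc17, a small secreted protein of macrophages, was 40.6, 33.2 and 39.6 CPM with etoposide and 31.3, 27.2 and 26.1 CPM with DMSO (0.42, SE 0.12). Both had no overlap between groups, as the ranking required. Milr1, an inhibitory receptor of mast cells, was 42.1, 37.3 and 37.1 CPM with etoposide and 32.3, 32.8 and 28.7 CPM with DMSO (0.31, SE 0.09). Oosp1, named for an oocyte-secreted protein, was 5.46, 4.60 and 5.75 CPM with etoposide and 3.27, 2.88 and 3.57 CPM with DMSO (0.70, SE 0.17). Haao, an enzyme of tryptophan breakdown, was 9.24, 10.6 and 10.4 CPM with etoposide and 7.59, 8.28 and 8.05 CPM with DMSO (0.34, SE 0.11). Cd300lb, an activating myeloid receptor, was 16.7, 13.3 and 12.2 CPM with etoposide and 11.8, 11.4 and 9.78 CPM with DMSO (0.35, SE 0.10). Oosp1, Haao and Cd300lb, ranked and so without overlap, were also higher with etoposide in E6l2-Trp53-KO cells, by 0.83, 0.46 and 0.89 (each called). Among the lowest, mt-Nd5, a mitochondrially encoded subunit of complex I, was 67.1, 51.9 and 63.2 CPM with etoposide and 69.7, 74.5 and 80.3 CPM with DMSO (-0.30, SE 0.12). It differed in direction from E6l2-Trp53-KO cells, where the difference was 0.57, and the responses differed by -0.87 (edgeR adjusted p = 0.0192). In E6l2-Trp53-KO cells all mitochondrial genes together took 2.50, 2.33 and 2.99% of counts with etoposide and 2.19, 2.03 and 2.08% with DMSO. In Trp53-KO cells they took 2.39, 2.31 and 2.10% with etoposide and 2.29, 2.47 and 2.19% with DMSO, overlapping. A response particular to mt-Nd5 was not tested. Pcdh7, a protocadherin, was 136, 138 and 143 CPM with etoposide and 160.2, 153 and 161 CPM with DMSO (-0.19, SE 0.04). Itpkc, an inositol trisphosphate kinase, was 6.73, 6.49 and 6.78 CPM with etoposide and 8.51, 8.16 and 9.17 CPM with DMSO (-0.37, SE 0.10). Htr2a, a serotonin receptor, was 5.55, 6.11 and 7.405 CPM with etoposide and 8.02, 8.67 and 8.05 CPM with DMSO (-0.38, SE 0.10). Neither Itpkc nor Htr2a was called in wildtype or E6l2-Trp53-KO cells. Lamc1, a laminin chain, was 139, 142 and 154 CPM with etoposide and 162, 156 and 178 CPM with DMSO (-0.19, SE 0.05).

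The largest fitted difference belonged to a gene whose libraries disagreed. Rps27, a ribosomal protein gene with near-identical copies, was 319, 26.7 and 415 CPM with etoposide and 19.9, 10.4 and 20.2 CPM with DMSO, and ranged from 10.4 to 724 CPM over the 36 libraries. H2bc23, a histone gene whose sequence is close to that of H2bc24, was 249.6, 44.7 and 165 CPM with etoposide and 72.5, 19.2 and 11.4 CPM with DMSO. Both are uncertain, since reads can be split between copies. Neither was called by the 36-library fit, and Rps27 and H2bc23 passed the 6-library blocked fit. That fit called H2bc24 lower (-0.78, edgeR adjusted p = 9.19e-08), and also Rps27rt, named after Rps27 (-0.22, adjusted p = 0.00173). Whether reads moved between copies was not tested.

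The response of Trp53-KO cells was compared with that of each other genotype by the difference of the etoposide effects. Against wildtype cells 3257 genes differed (23.2%), 1697 with a higher and 1560 with a lower response in Trp53-KO cells. Against E6l2-KO cells 1878 differed (13.4%), 945 higher and 933 lower, and DESeq2 gave 772 higher and 1269 lower. The balance of higher and lower responses in both comparisons also moved with single libraries. Genes with at least 10 counts numbered 13065, 13259 and 13324 in wildtype DMSO and 11944, 12129 and 12328 in wildtype etoposide libraries. In E6l2-KO cells they numbered 12926, 13149 and 13165 with DMSO and 12039, 11923 and 12180 with etoposide. Trp53-KO cells had 12901, 12398 and 12475 with DMSO and 13010, 13028 and 12951 with etoposide. The part of this shift in the differing responses was not tested. Against E6l2-Trp53-KO cells 29 differed (0.206%), 16 higher and 13 lower, with 1920 at an unadjusted p under 0.05 (7.23% of all genes higher and 6.43% lower). The last count moved with single libraries, from 6 without Trp53-KO etoposide replicate 3 or E6l2-Trp53-KO DMSO replicate 2 to 311 without E6l2-Trp53-KO etoposide replicate 1, and was 69 by DESeq2 and 49 with the replicate block. In E6l2-Trp53-KO cells etoposide against DMSO gave 1858 called genes (13.2%), so a difference in response was called for few of the genes called in 1 of these genotypes and not in the other.

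The 9 hypoxia and glycolysis genes described above were the main group among those 29. The strongest lower response was that of Thbs1, the matricellular protein thrombospondin-1, which had 31.4 ± 4.04 CPM with etoposide and 26.9 ± 3.36 CPM with DMSO in Trp53-KO cells (SD, n = 3 each). In E6l2-Trp53-KO cells it had 34.5 ± 2.41 CPM with etoposide and 11.8 ± 1.004 CPM with DMSO (SD, n = 3 each), and the difference in response was -1.32.

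Genes called in the other genotypes had medians near 0 in Trp53-KO cells, with the direction of the other genotype in some sets and not in others. The 839 genes that rose in E6l2-Trp53-KO cells had a median of 0.06 in Trp53-KO cells, with 70.3% above 0, and the 1019 that fell had a median of -0.03, with 75.0% below 0. All 12 genes that fell by 2-fold or more in E6l2-Trp53-KO cells lay below 0 in Trp53-KO cells, with a median of -0.36. The 2860 genes that rose in wildtype cells had a median of 0.02 in Trp53-KO cells, with 64.1% above 0 against 49.5% of all genes tested. The 2970 genes that fell in wildtype cells had a median of -0.01 with 52.8% below 0, against 50.5% of all genes. The 1313 of them that fell by 2-fold or more had a median of 0.06 and 59.2% above 0. Most genes with large wildtype differences were scarce. Of 1646 that differed by 2-fold or more either way, 103 had at least 5 CPM in wildtype cells. All 4615 genes below 5 CPM in Trp53-KO cells also had a median of 0.06. The 2653 genes that rose in E6l2-KO cells had a median of 0.02 with 64.9% above 0, and the 2265 that fell a median of -0.01 with 53.6% below 0. Over genes with at least 5 CPM, the Spearman rho of the Trp53-KO differences was 0.22 with those of E6l2-Trp53-KO cells (9371 genes), 0.28 with E6l2-KO (9373 genes) and 0.27 with wildtype (9381 genes), across genes, which are not independent replicates. Pearson correlations over the same genes gave another order, at 0.46 with E6l2-Trp53-KO, 0.07 with E6l2-KO and 0.18 with wildtype cells.

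Of the 77 genes called higher in Trp53-KO cells by the 6-library blocked fit, 31 were called higher in E6l2-Trp53-KO cells, 48 in E6l2-KO and 55 in wildtype cells, against 6.22%, 20.4% and 22% of the 12934 genes of that fit. Of the 69 called lower, 35 were lower in E6l2-Trp53-KO, 39 in E6l2-KO and 38 in wildtype cells, against 7.86%, 16.7% and 21.1%. In the opposite direction, 0, 3 and 1 of the 77 were called lower in these genotypes, in the same order. For the 69, 5, 6 and 9 were called higher, against 6.22%, 20.4% and 22% of all genes. The shares over all genes were not matched for expression level.

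Trp53-KO cells did change under another condition of the study, with the same DMSO libraries as the control. Seeding at 4 M cells per well for 48 h gave 6288 called genes (44.7%), 3356 higher and 2932 lower. Cdkn1a rose by 2.76 in log2 at high density, against a value of -0.06 with etoposide. Slc16a3 rose by 0.82 and Pfkl by 0.40 at high density, against -0.42 and -0.24 with etoposide.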

How the data were processed

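RNA was taken with the PicoPure kit and libraries were made with the Illumina TruSeq RNA kit V2, which does not mark strand, so a gene and an overlapping antisense gene cannot be told apart. The authors deposited expected counts per gene, estimated counts that need not be whole (58.1% of values above 0 lie within 0.01 of a whole number); no source used here names the aligner, build or annotation. After rounding, edgeR 4.0.16 was run in R 4.3.3 (limma 3.58.1, TMM, filterByExpr, quasi-likelihood F test), on 36 untransformed libraries in 12 groups, with 14059 of 25528 genes tested; 24 degrees of freedom remained. The transformed libraries did not enter the fit. Levels are CPM on the TMM scale, differences are log2, intervals are 95% and p-values are Benjamini-Hochberg adjusted over all genes tested. Lengths and GC shares came from GENCODE vM21 (99.6% of genes matched) and promoters from RefSeq. Ranking took genes without overlap at an unadjusted p under 0.05 and 5 CPM or more in 1 group, predicted models left out, and up to 4 members were named per list. Genes outside this rule, such as Slc2a1 or Gbp8, were named after their values were seen. The comparison, members and 30 lists were chosen with earlier results of these data known.

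Same-numbered Trp53-KO etoposide and DMSO libraries had deviations from their group means that correlated by 0.30, 0.46 and 0.29, against -0.33 to 0.11 for other pairs. Such deviations sum to 0 over 3 libraries, so these correlations depend on each other. The numbers were taken to pair the libraries, and the labels do not say what a number marks. Over a slightly different gene set the Trp53-KO values were 0.30, 0.41 and 0.24. They were 0.06, 0.10 and 0.02 in E6l2-KO, 0.08, 0.10 and 0.21 in E6l2-Trp53-KO and 0.22, -0.13 and 0.12 in wildtype cells. In those 3 genotypes other pairs reached 0.06, 0.15 and 0.18. Alternatives were DESeq2 1.42.0, RLE scaling, no filter, the replicate block, the contrast's groups alone, length and GC offsets (mgcv 1.9.3) and leaving out each library. The edgeR fit and the paired fit were tried on simulated data, and the outcome of those trials is not given here. Depth was 22.5 to 30.8 M counts in the 6 libraries; intervals cover the spread between libraries.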

Additional observations from a re-analysis of the deposited data

Results flagged for a closer look

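Each result below was marked because the etoposide response itself differed between Trp53-KO cells and another genotype, by edgeR's test of the difference at an adjusted p under 0.05. Values are log2 differences of the responses, Trp53-KO minus the other genotype.

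Against wildtype cells, the lower responses were those of Cdkn1a (-2.22), Phlda3 (-2.20), Psrc1 (-1.81), Ptgds (-1.43), Bbc3 (-1.32), Dglucy (-1.29), Slc19a2 (-1.14) and Fam221b (-1.05). The higher ones were those of Egr1 (2.32), Slc16a3 (1.48), Ak4 (1.48) and Zfp488 (1.47), and of the receptor genes Olfr839 (2.12), Olfr639 (1.93), Vmn2r53 (1.92) and Vmn2r114 (1.53), whose large families share sequence. Fewer genes reached 10 counts in wildtype etoposide than in wildtype DMSO libraries, as given above. TMM scaling factors were 0.92 to 0.93 in wildtype etoposide and 1.05 to 1.06 in wildtype DMSO libraries. The part of this in the values here was not tested.

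Against E6l2-KO cells, the lower responses were those of Ak1 (-2.38), Phlda3 (-2.30), Cdkn1a (-2.10), Psrc1 (-1.75), H2bc24 (-1.73) and Dglucy (-1.39), and the higher ones those of Rps27 (8.42), H2bc23 (4.08), Ankrd37 (1.77), Olfr839 (1.72), Slc16a3 (1.59) and Sap25 (1.48). The values of Rps27 and the H2bc genes are uncertain because near-identical copies can share reads.

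Against E6l2-Trp53-KO cells, the higher responses were those of Slc16a3 (1.02), Pfkl (0.81), Bnip3 (0.76), Grhpr (0.68), Eno1 (0.64) and Dbn1 (0.62). The lower ones were those of Thbs1 (-1.32), mt-Nd5 (-0.87), Igsf6 (-0.75), Ddx58 (-0.64), Nhsl2 (-0.61) and Krt80 (-0.59). The library of E6l2-Trp53-KO etoposide replicate 3, at 40.9 M counts, stood apart in depth from its group.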

How the results depend on the processing

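Etoposide against DMSO in Trp53-KO cells gave 0 called genes in the 36-library fit, also with DESeq2, RLE scaling, the replicate block, a block within each genotype, length and GC offsets, and without each library (0 to 0). It gave 16 of 21988 without the filter, 1 (Gbp6) from the 6 libraries alone and 146 from these with the replicate block. That blocked fit gave 145 with RLE scaling, 199 without the filter, 141 with offsets, 19 by DESeq2, 1 with no replicate block and 37 to 190 without each pair.

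The 29 genes differing from E6l2-Trp53-KO cells became 69 by DESeq2, 228 without the filter, 49 with the replicate block, 2 in a fit of those groups alone and 6 to 311 without each library. The 1878 differing from E6l2-KO cells became 3316 in a fit of those groups alone and 1262 to 2187 without each library, and the 3257 differing from wildtype cells 2511 to 3882. The higher share of the E6l2-KO difference moved from 50.3% to 37.8% by DESeq2, 38.3% with offsets and 30.9% without the filter, and that of the wildtype difference from 52.1% to 34.1% without the filter. Leaving out 1 of 6 libraries moved the wildtype share to between 35.3% and 37.2% (Trp53-KO DMSO replicate 2, Trp53-KO etoposide replicates 1 and 2, and wildtype DMSO replicates 1 to 3). Leaving out 1 of 5 libraries moved the E6l2-KO share to between 32.3% and 34.9% (Trp53-KO DMSO replicate 2, Trp53-KO etoposide replicates 1 and 2, and E6l2-KO DMSO replicates 2 and 3). Without each library, wildtype etoposide gave 4810 to 5945 called genes and high density 5422 to 5765. The cause was not tested.

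The replicate block was printed where it moved a count by over 1.5 times; it gave 3360 called genes for the wildtype difference and 1982 for the E6l2-KO difference. Depth limits genes below 5 CPM.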
